A study of Mus musculus with 6 samples.

Results

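Phase I enzymes put a reactive or polar group onto foreign chemicals, drugs, steroids, fatty acids and aldehydes, or take such a group off. Their genes were read here in stomach corpus, the acid-secreting body of the stomach. The members are the rows of the deposited table whose gene name starts with Cyp, Ces, Aldh, Adh, Akr, Fmo, Ephx or Cbr followed by a number, with the sterol synthesis gene Cyp51 left out, and whose mean over the 6 libraries was at least 1 FPKM (fragments per kilobase of transcript and library size). They number 71, of 163 rows with such names and 18708 rows in all. The 6 libraries came from C57BL/6 mice aged 6 months. WT 1, WT 2 and WT 3 came from wild-type animals, and R122C 1, R122C 2 and R122C 3 from animals with the R122C substitution in RUNX3, a transcription factor of the Runt family, with 1 mouse per library. The labels state neither zygosity nor sex nor how the allele was made. The question set by the study is how the mutation alters the corpus, in particular its stem cells and their differentiation.

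Cytochrome P450 enzymes are haem monooxygenases that take electrons from a reductase, and flavin monooxygenases carry out similar oxidations of nitrogen and sulphur without haem. Carboxylesterases and epoxide hydrolases open esters and epoxides with water, alcohol dehydrogenases make aldehydes from alcohols, and aldehyde dehydrogenases turn aldehydes into acids. Aldo-keto and carbonyl reductases run the opposite way and reduce aldehydes and ketones to alcohols. Liver is the main site of drug metabolism, while the stomach lining meets swallowed chemicals first and is known for class IV alcohol dehydrogenase and for aldehyde dehydrogenases of the third family.

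Gastric epithelial transcripts were abundant in every library. Atp4a, which encodes the large subunit of the gastric proton pump, was at 326 FPKM in R122C 3 and at 1543 to 3617 in the other 5. Tff1, a pit cell peptide, ranged from 26513 to 99192 FPKM. A pair of libraries stood apart. WT 2 carried liver transcripts, with Alb, encoding serum albumin, at 64.5 FPKM and at or under 6.20 in the other 5. R122C 3 carried squamous transcripts, with the 9 listed forestomach genes summing to 1021 FPKM against 0.44 to 53.1 in the other 5. Y-linked transcripts were present in WT 3 and R122C 2 only, so each group held 1 such library. The spacing of low values gave about 32.3 to 40.0 M fragments (M, 1e6) for 4 libraries and no stable estimate for WT 1 and R122C 1.

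Most of the enzyme genes had lower levels in R122C corpus, and few of them passed the test. Tests were made with limma on log2(FPKM + 1) over the 11422 genes that reached the same minimum, with a Benjamini-Hochberg adjusted p under 0.05 as the threshold, and fold changes are on that log2 scale. Ces2a, Fmo5, Aldh3a1 and Ephx1 fell, and Aldh18a1 and Ephx4 rose. The other members did not pass. The 4 that fell are 5.63% of the members, where 0.832% of all tested genes were called lower. The 2 that rose are 2.82%, where 5.27% of all tested genes were called higher. A log2 fold change below 0 was found for 52 members, and the median was -0.39, beside 0.10 over all genes tested. WT and R122C values were fully apart for 19 members that were lower in R122C (26.8%) and 4 that were higher (5.63%), where the background is 5.19% and 20.3%. At an unadjusted p under 0.05, 26 members were lower (36.6%) and 4 higher (5.63%), beside 4.88% and 15.3% of all tested genes. In either direction 6.1% of all tested genes were called. Of the 71, 6 had a mean under 1 FPKM in one of the groups, 4 of them in R122C. These entered only through the other group, and Cyp2d10 and Fmo2, among them, are counted in the 19 fully apart. At the unadjusted p, Cyp2d10, Fmo2 and Cyp2c68 are counted in the 26 lower and Aldh1a3 in the 4 higher.

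The scaling of the libraries moved these counts. The median log2 fold change of all tested genes was 0.10 as deposited, -0.0049 with median-of-ratios scaling, -0.06 with quantile normalization and 0.29 after rescaling to a common FPKM total. With the same settings 56, 57 and 42 members lay below 0, and 8, 11 and 4 members were called lower and 1, 1 and 3 higher. Over all tested genes the lower calls were 193, 248 and 76 under these settings, beside 95 as deposited, and the higher calls 417, 405 and 1259, beside 602. Ces2a, Fmo5, Aldh3a1 and Ephx1 were called lower and Aldh18a1 higher under all 3, and Ephx4 was called higher after rescaling only.

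The R122C libraries were not equally low. Against the WT mean, the median difference over the members was -0.21 in R122C 1, -0.34 in R122C 2 and -0.65 in R122C 3 on the log2 scale. Over all tested genes the same medians were 0.28, 0.10 and -0.09. R122C 3 held the lowest R122C value for 43 of the 71 members, or 60.6%, and for 64.3% of all tested genes, and R122C 1 held the highest for 53, or 74.6%, and for 62.3% of all tested genes. WT 2 held the highest WT value for 34 members, or 47.9%, against 22.2% of all tested genes. Fewer cells of a type and less RNA per cell cannot be told apart in whole tissue. The 10 listed corpus epithelium genes found in the table summed to 214697 to 281301 FPKM in WT and 71387 to 122223 in R122C, with none of them at 0, and their part in these changes was not tested. The pit cell mucin Muc5ac, of that list, fell by 2.70 on the log2 scale (limma adjusted p = 0.00312), while Muc6 and Tff2, made by mucous neck cells, rose by 4.35 and 2.16 (adjusted p = 0.0035 and 0.0074). All 4 listed tuft cell genes and 2 of 4 listed leukocyte genes rose too, with summed levels of 5.91 to 10.7 FPKM in WT and 27.1 to 56.7 in R122C for tuft cells and 5.99 to 13.1 and 23.6 to 46.7 for leukocytes, and no gene of either list at 0; their part was not tested.

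**Figure D1:**
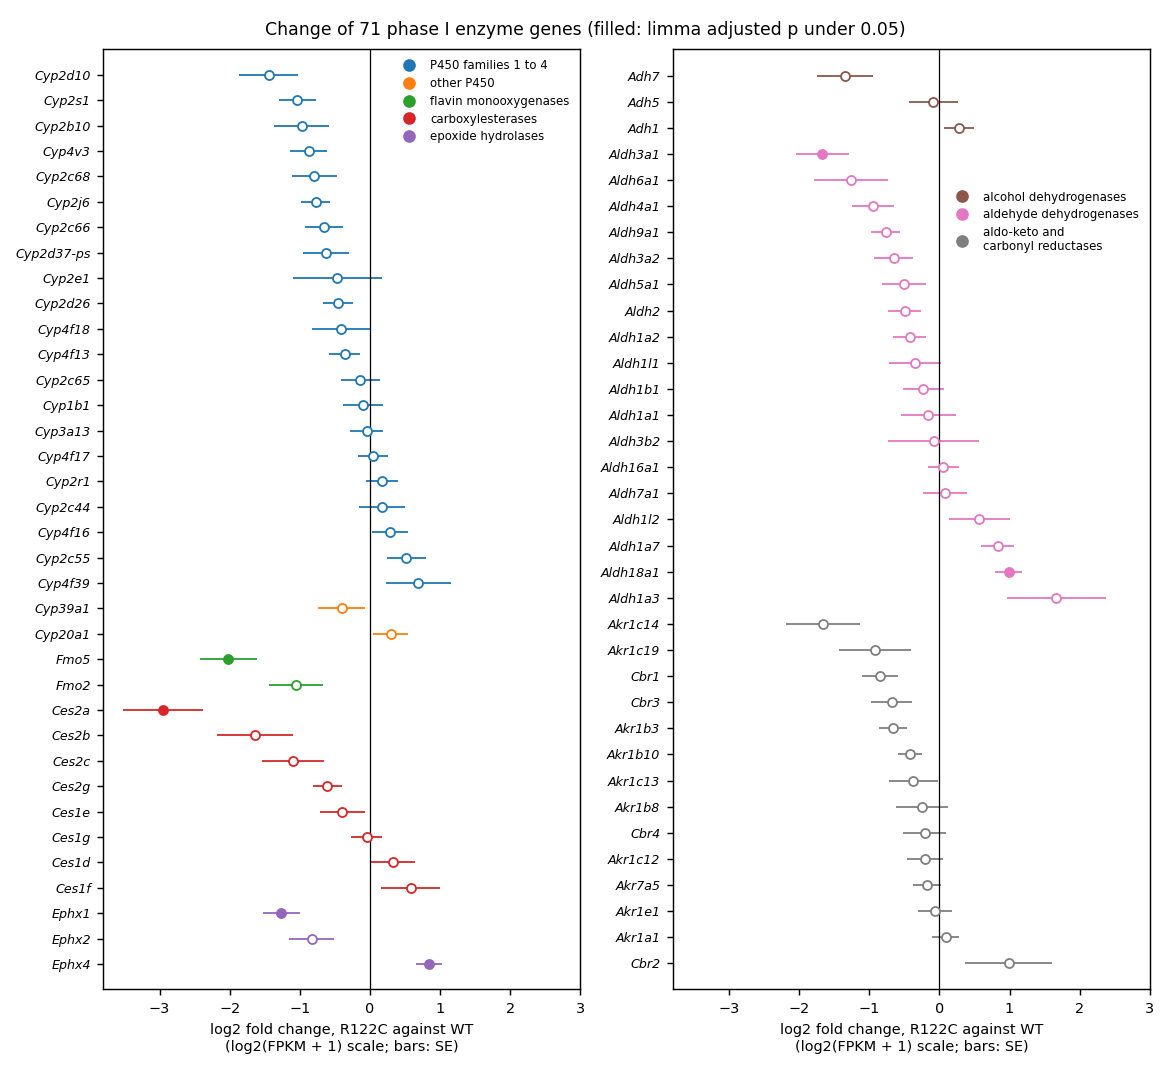
Log2 fold change of each of the 71 members in R122C against WT (x axis, log2(FPKM + 1) scale), with its standard error as a bar and 1 row per gene, coloured by enzyme class. Filled points passed the limma threshold: Ces2a, Fmo5, Aldh3a1 and Ephx1 on the left of 0, Aldh18a1 and Ephx4 on the right, and 52 of 71 points lie left of 0.

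**Figure D2:**
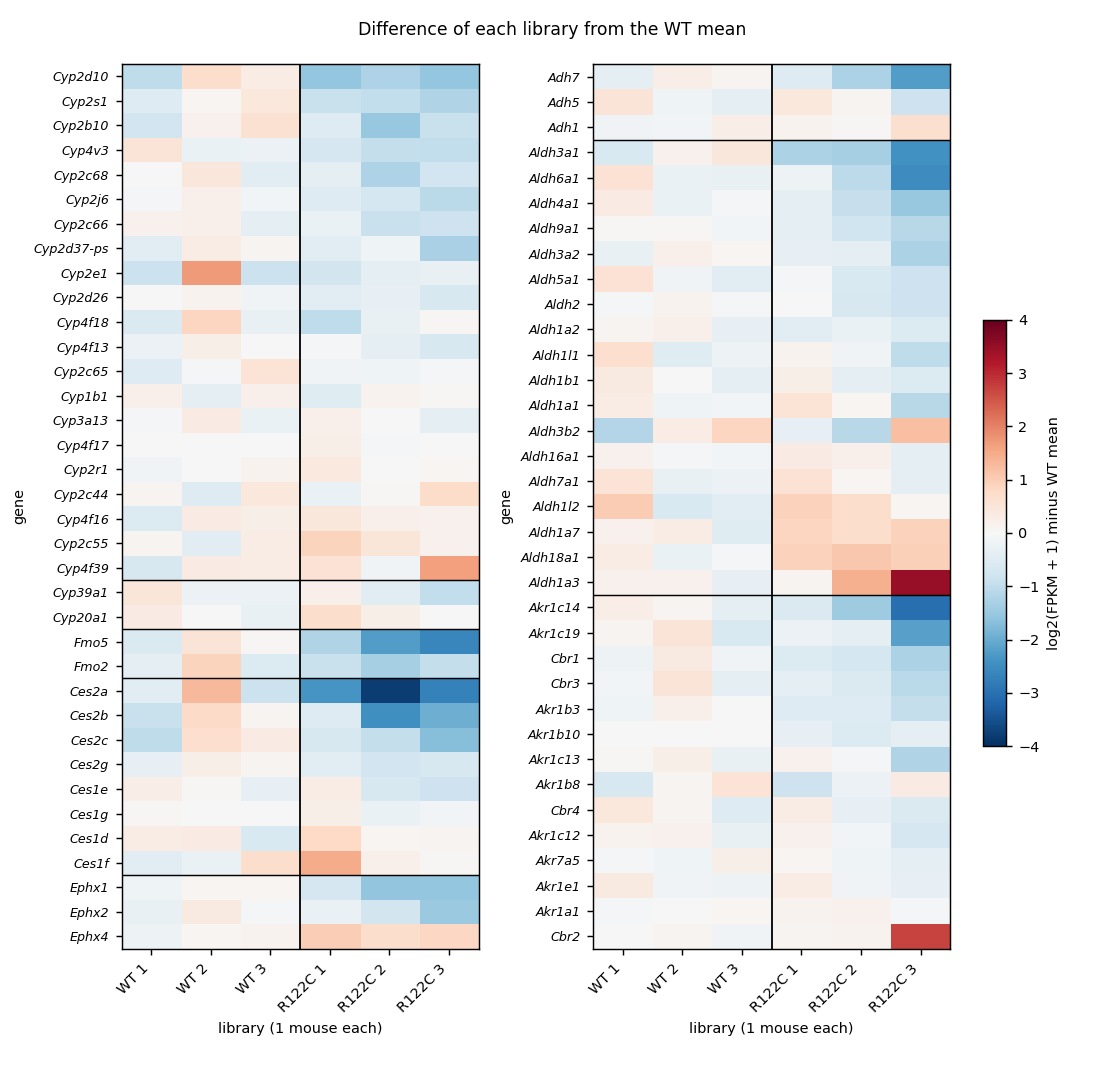
Difference of every library from the WT mean on the log2(FPKM + 1) scale (colour), with 1 column per mouse and 1 row per member, grouped by enzyme class. Blue is strongest in R122C 3 for Akr1c14, Aldh6a1 and Fmo5 and in R122C 2 for Ces2a, and the red cells of Aldh1a3 and Cbr2 stand in R122C 3.

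The promoter windows of the called genes other than Aldh3a1 are shown because the levels of these members moved past the threshold. RefSeq windows of GRCm38.p6, from 250 bases before to 50 after an annotated start, were found for 56 of the 71 members, 61 windows in all. Capitals mark a match, on either strand, to any of 5 letter patterns: TGTGGT, the core bound by RUNX factors; GCGTG, the core bound by the aryl hydrocarbon receptor; TGACNNNGC, the antioxidant response core bound by NRF2; and DR3 and DR4, spaced direct repeats bound by nuclear receptors. Each window is written along the gene's own strand.
Ces2a, chr8:104733753-104734052, plus strand: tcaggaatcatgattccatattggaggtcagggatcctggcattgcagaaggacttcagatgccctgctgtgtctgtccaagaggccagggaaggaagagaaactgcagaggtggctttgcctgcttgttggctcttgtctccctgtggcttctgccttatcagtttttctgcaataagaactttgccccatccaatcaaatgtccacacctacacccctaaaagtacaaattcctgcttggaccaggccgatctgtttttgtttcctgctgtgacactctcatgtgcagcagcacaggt
Fmo5, chr3:97628769-97629068, plus strand: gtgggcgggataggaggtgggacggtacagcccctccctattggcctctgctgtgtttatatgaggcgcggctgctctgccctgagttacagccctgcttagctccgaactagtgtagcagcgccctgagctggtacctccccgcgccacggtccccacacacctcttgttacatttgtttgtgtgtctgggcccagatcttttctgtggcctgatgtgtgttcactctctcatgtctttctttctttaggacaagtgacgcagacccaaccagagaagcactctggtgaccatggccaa
Ephx1, chr1:181017520-181017819, minus strand: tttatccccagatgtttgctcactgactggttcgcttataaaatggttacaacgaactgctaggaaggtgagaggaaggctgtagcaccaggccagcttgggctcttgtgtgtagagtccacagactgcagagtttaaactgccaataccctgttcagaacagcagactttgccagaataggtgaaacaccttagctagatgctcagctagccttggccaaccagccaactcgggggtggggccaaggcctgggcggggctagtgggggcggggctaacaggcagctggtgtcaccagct
Aldh18a1, chr19:40588414-40588713, minus strand: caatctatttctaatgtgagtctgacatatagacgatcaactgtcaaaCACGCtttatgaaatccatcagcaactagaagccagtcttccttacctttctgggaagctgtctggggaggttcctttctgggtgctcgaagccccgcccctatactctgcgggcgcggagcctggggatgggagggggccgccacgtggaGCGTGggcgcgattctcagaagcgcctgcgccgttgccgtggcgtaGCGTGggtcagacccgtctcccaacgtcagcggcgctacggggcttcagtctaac
Ephx4, chr5:107403263-107403562, plus strand: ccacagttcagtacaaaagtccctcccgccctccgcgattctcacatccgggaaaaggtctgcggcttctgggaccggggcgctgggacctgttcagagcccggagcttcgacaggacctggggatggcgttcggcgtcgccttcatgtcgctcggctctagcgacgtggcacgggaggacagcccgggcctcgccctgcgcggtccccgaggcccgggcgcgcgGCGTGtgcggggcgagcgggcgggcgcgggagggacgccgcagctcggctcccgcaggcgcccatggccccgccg
The 3 printed windows of genes that fell hold none of the 5 patterns. Those of the 2 genes that rose hold GCGTG, with 3 matches in Aldh18a1 and 1 in Ephx4. A second annotated start of Ephx4 has none. TGTGGT was in 6 of the 61 member windows (9.84%, against 16.8% of 32851 windows of all genes), and none of these 6 belongs to a called member. GCGTG was in 21 (34.4%, against 32.4%) and TGACNNNGC in 8 (13.1%, against 12.4%). The spaced repeats were in 0 of the 61 and in 0.07% and 0.125% of all windows. The patterns do not overlap in the printed windows, and a letter match is a description and not a binding site.

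P450s of families 1 to 4, many of which oxidise drugs and fatty acids, had 21 members, the pseudogene Cyp2d37-ps among them. Limma called none of the 21 in the main comparison. With median-of-ratios scaling 2 were called lower, with quantile normalization 3 and after rescaling 0. The 7 with an unadjusted p under 0.05 all had lower values in R122C, where 4.88% of all tested genes were lower and 15.3% higher. Of the 7, Cyp2c68 and Cyp2d10 reached the minimum only through WT. Cyp2s1, an extrahepatic P450 of epithelia and the P450 with the highest mean, was at 336, 514 and 649 FPKM in the 3 WT libraries in order and at 257, 242 and 209 in R122C 1 to 3. All 3 R122C values lay under the lowest WT value, and those of R122C were close to each other while WT ranged widely. The log2 fold change was -1.03 ± 0.27 (SE), and it missed the threshold (limma adjusted p = 0.0589). It passed under 3 of 17 alternative settings, without WT 1 (0.0204), with quantile normalization (0.0419) and with a robust variance estimate (0.0495). The adjusted p was 0.202 without WT 2. Cyp2s1 lies on chromosome 7, 25802475 to 25816913, minus strand, with up to 9 exons in an annotated transcript (GENCODE M21, GRCm38, to which all gene positions here refer).

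Cyp2c65, the second most abundant P450, was at 167, 235 and 353 FPKM in WT and 217, 212 and 228 in R122C. Its groups overlapped, with a log2 fold change of -0.14 ± 0.27 (adjusted p = 0.845). Cyp2c65 and its neighbour Cyp2c66 resemble each other: 20.6% of the 50-base words of Cyp2c65 transcripts occur in transcripts of another gene, so the split of reads between them is uncertain. Cyp2c66 stood at only 0.79 to 2.84 FPKM in the 6 libraries. Cyp2j6, of a subfamily that makes epoxides of arachidonic acid, was at 52.0 to 63.6 FPKM in WT and 25.6 to 38.5 in R122C, without overlap (log2 fold change -0.77 ± 0.20, adjusted p = 0.0645). Cyp4v3, a fatty acid omega-hydroxylase, was at 3.92 to 7.53 FPKM in WT and 2.01 to 2.72 in R122C, also without overlap (adjusted p = 0.0979). Both were named after their values were seen.

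Cyp2d10 was at 0.72, 4.69 and 3.30 FPKM in WT and at 0.18, 0.49 and 0.19 in R122C. Every R122C value lay under the WT values, of which WT 1 was far lower than the other two. Its log2 fold change was -1.44 ± 0.42 (adjusted p = 0.0872, and 0.00933 without WT 1). With an R122C mean of 0.29 FPKM, Cyp2d10 reached the minimum only through WT. Without WT 2 it fell under the minimum and was not tested. Other transcripts, chiefly those of Cyp2d11, hold 35.8% of its 50-base words. Cyp2b10, which in mouse liver is the classical target of the receptor CAR, was at 1.62, 4.10 and 5.79 FPKM in WT and 2.16, 0.57 and 1.41 in R122C (adjusted p = 0.211), with overlapping groups. Cyp3a13, the only Cyp3a member at this level, was at 20.04 to 30.72 FPKM in WT and 18.1 to 28.1 in R122C (log2 fold change -0.05 ± 0.23, adjusted p = 0.94). Cyp1b1, a target of the aryl hydrocarbon receptor, was at 0.64 to 1.49 and 0.54 to 1.40 FPKM (adjusted p = 0.896), and Cyp1a1 did not exceed 0.46 FPKM in any mouse.

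Of the other P450s only 2 reached the minimum, Cyp20a1, whose substrate is not known, and Cyp39a1, an oxysterol 7-alpha-hydroxylase. Neither passed, at 0.30 ± 0.25 and -0.41 ± 0.33 on the log2 scale (adjusted p = 0.571 and 0.563). Cyp26a1, which breaks down retinoic acid, did not exceed 0.05 FPKM in any mouse.

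The flavin monooxygenase Fmo5 fell. It was at 7.21, 16.5 and 11.8 FPKM in the 3 WT libraries in order and at 4.34, 1.6 and 0.99 in R122C 1 to 3. The groups did not overlap, and R122C 1 lay nearest to WT. The means were 11.8 ± 4.64 and 2.31 ± 1.78 FPKM (SD, n = 3), and the log2 fold change was -2.02 ± 0.40 (limma adjusted p = 0.0231). Fmo5 (chromosome 3, 97628804 to 97655282, plus strand, up to 9 exons) shares 0.434% of its 50-base words with other genes. It did not pass without WT 2 (0.106), WT 3 (0.0737) or R122C 2 (0.0904). Fmo2 was at 1.21, 4.28 and 0.92 FPKM in WT and 0.52, 0.13 and 0.47 in R122C, with no overlap and a log2 fold change of -1.05 ± 0.39 (adjusted p = 0.171). Of its WT values that of WT 2 was the highest. With an R122C mean of 0.37 FPKM, Fmo2 reached the minimum only through WT. Without WT 2 it fell under the minimum and was not tested.

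The carboxylesterase members lie in 2 gene clusters. The 4 members of the Ces2 cluster lie within chromosome 8, 104734003 to 104969537, and all had lower means in R122C, under each of the 3 other scalings too, but 1 passed. Ces2a was at 18.4, 64.6 and 13.5 FPKM in the 3 WT libraries in order and at 4.14, 0.90 and 3.07 in R122C 1 to 3. The groups did not overlap, and WT 2 lay far above the other WT libraries. The means were 32.2 ± 28.2 and 2.70 ± 1.65 FPKM (SD, n = 3), a ratio of WT to R122C of 11.9, and the log2 fold change was -2.95 ± 0.57 (adjusted p = 0.0203). Without WT 2, the library with liver transcripts, it was -2.30 and still passed (adjusted p = 0.0437), whereas without R122C 2 it did not (0.0692). Ces2a (chromosome 8, 104734003 to 104741634, plus strand, up to 12 exons) shares 17.3% of its 50-base words with other transcripts.

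Ces2c, the most abundant carboxylesterase, was at 165, 524 and 420 FPKM in WT and 212, 171 and 102 in R122C. WT 1 lay inside the range of R122C, and the log2 fold change of -1.09 ± 0.44 did not pass (adjusted p = 0.213). It did without WT 1 (0.0367). Reads of Ces2c may be shared, since 36.1% of its 50-base words occur elsewhere, chiefly in the pseudogene Ces2d-ps. Ces2b differed by -1.64 ± 0.54 on the log2 scale (adjusted p = 0.129) and Ces2g, at 99.1 to 144 FPKM in WT and 72.8 to 92.3 in R122C without overlap, one of -0.61 ± 0.21 (adjusted p = 0.138). The 4 Ces1 members lie on the same chromosome between 93166068 and 93337308. Their log2 fold changes were 0.33 for Ces1d, -0.39 for Ces1e, 0.58 for Ces1f and -0.04 for Ces1g, and none passed. Ces1f was highest in R122C 1, at 57.5 FPKM, against 14.5 to 33.0 in WT.

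**Figure D3:**
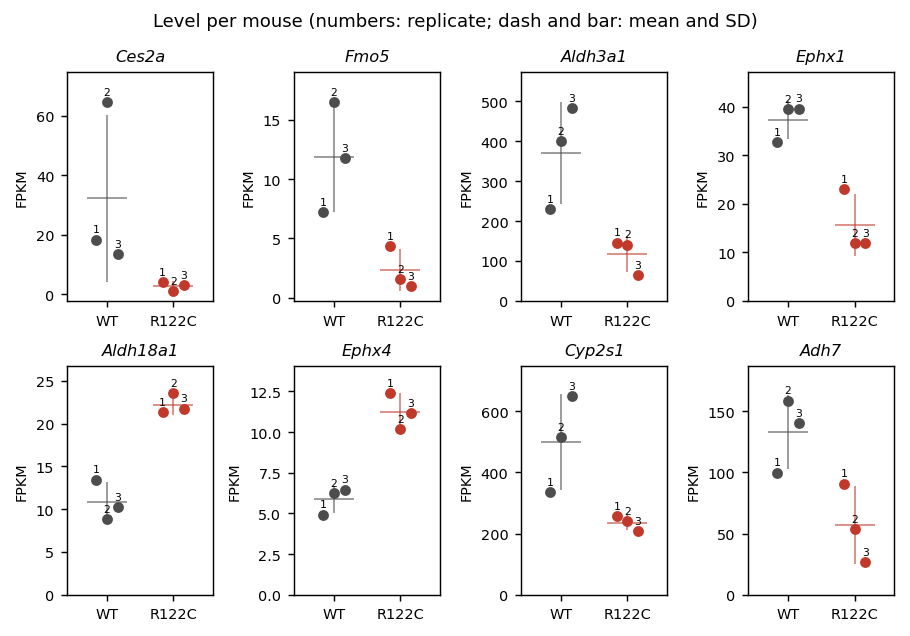
FPKM of 8 members in each mouse (points, numbered by replicate) with the group mean (dash) and SD (bar). In the first 6 panels the groups do not overlap and the limma threshold was passed, with Ces2a at 64.6 FPKM in WT 2 above the other 2 WT mice; Cyp2s1 and Adh7 do not overlap either and did not pass.

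The epoxide hydrolases moved in different directions. Ephx1, the microsomal enzyme that opens epoxides made by P450s, was at 32.7, 39.5 and 39.7 FPKM in WT and 23.1, 11.9 and 12.0 in R122C 1 to 3. The groups were apart, with R122C 1 between the other R122C libraries and WT. Ephx1 fell, with a log2 fold change of -1.26 ± 0.26 (adjusted p = 0.0286) and means of 37.3 ± 3.98 and 15.6 ± 6.44 FPKM (SD, n = 3). It lies on chromosome 1, 180976210 to 181020904, minus strand. Ephx2, the soluble enzyme that acts on fatty acid epoxides, was at 56.2, 90.7 and 66.6 FPKM in WT and 57.7, 41.8 and 24.2 in R122C. R122C 1 lay inside the WT range, and the log2 fold change of -0.83 ± 0.32 did not pass (adjusted p = 0.192). Ephx4, a homologue of unsettled substrate, was at 4.93, 6.23 and 6.47 FPKM in WT and 12.4, 10.2 and 11.2 in R122C. The groups were apart and tight, with means of 5.88 ± 0.83 and 11.3 ± 1.12 FPKM. Ephx4 (chromosome 5, 107402736 to 107430035, plus strand) rose by 0.84 ± 0.19 (adjusted p = 0.0357). With 1 library left out at a time, Ephx1 passed in 2 of 6 fits and Ephx4 in 0, where omitting WT 1, WT 2, WT 3 or R122C 2 gave Ephx1 an adjusted p of 0.0513, 0.12, 0.0922 or 0.121, and that of Ephx4 was 0.0593 to 0.122. In all 6 fits both genes had the sign of the full comparison.

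The 3 alcohol dehydrogenase members lie in one cluster on chromosome 3. Adh7, the class IV enzyme of stomach lining that also oxidises retinol, was at 99.8, 159 and 140 FPKM in WT and 90.9, 53.7 and 26.8 in R122C 1 to 3. The groups did not overlap, but R122C 1 lay close to WT 1. The log2 fold change was -1.34 ± 0.40 (adjusted p = 0.0964), and it passed without R122C 1 (0.0271) and not without WT 2 (0.297). Adh1, the class I enzyme, was at 44.97 to 59.27 FPKM in WT and 51.2 to 77.2 in R122C, with a log2 fold change of 0.28 ± 0.22 (adjusted p = 0.543). Adh5, which handles glutathione-bound formaldehyde, had one of -0.09 ± 0.35 (adjusted p = 0.928).

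Of 18 aldehyde dehydrogenase members, 1 fell and 1 rose. Aldh3a1, which oxidises aromatic and lipid-derived aldehydes and was the most abundant of them in WT, was at 230, 399 and 482 FPKM in the 3 WT libraries in order. In R122C 1, R122C 2 and R122C 3 it was at 146, 141 and 65.0 FPKM. All R122C values lay under WT 1, the lowest WT value. The log2 fold change was -1.67 ± 0.38 (adjusted p = 0.0374), from a mean of 370.4 ± 128 to 117 ± 45.4 FPKM (SD, n = 3). The call was lost without WT 2 (0.141), WT 3 (0.112) or R122C 2 (0.0732). Aldh3a1 (chromosome 11, 61207537 to 61218421, plus strand, up to 11 exons) shares no 50-base word with another gene. Its neighbour Aldh3a2, which oxidises fatty aldehydes, was at 76.6 to 110 FPKM in WT and 39.1 to 75.8 in R122C, without overlap but with WT 1 and R122C 1 less than 1 FPKM apart (log2 fold change -0.65 ± 0.28, adjusted p = 0.235).

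Aldh18a1, the mitochondrial enzyme that makes the precursor of proline from glutamate, was at 13.5, 8.80 and 10.3 FPKM in WT and 21.3, 23.6 and 21.8 in R122C. The 3 R122C values were close together and all above WT. Aldh18a1 (chromosome 19, 40550257 to 40588463, minus strand) rose by 0.99 ± 0.20 (adjusted p = 0.0227), from 10.8 ± 2.39 to 22.2 ± 1.18 FPKM (SD, n = 3), and did not pass without WT 2 (0.111), WT 3 (0.0848) or R122C 2 (0.111). It was the only called member that was also called with no filter on low values. Aldh4a1, which acts in proline breakdown, was at 12.63 to 19.96 FPKM in WT and 4.76 to 11.6 in R122C without overlap, with a log2 fold change of -0.95 ± 0.30 (adjusted p = 0.117). Of the 50-base words of Aldh4a1, 30% occur in other transcripts, chiefly those of Gm21969. Other mitochondrial members, Aldh6a1 of valine breakdown and Aldh2 of acetaldehyde clearance, differed by -1.26 ± 0.53 and -0.49 ± 0.23 on the log2 scale (adjusted p = 0.225 and 0.288). For Aldh6a1 the level in R122C 3 was 13.1 FPKM, against 38.0 and 68.5 in the other R122C libraries and 64.0 to 119 in WT.

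The Aldh1a members include the enzymes that make retinoic acid from retinaldehyde, Aldh1a1, Aldh1a2 and Aldh1a3, and none of them passed the test. Aldh1a1 was at 238, 174 and 179 FPKM in WT and 287, 205 and 90.5 in R122C, with R122C above and below WT (log2 fold change -0.16 ± 0.39, adjusted p = 0.88). Aldh1a7, a close copy beside it on chromosome 19 that is not known as a retinoic acid producer, was at 10.3, 11.5 and 6.25 FPKM in WT and 17.2, 15.5 and 18.2 in R122C without overlap (0.83 ± 0.23, adjusted p = 0.08). Of its 50-base words, 7.49% occur in other transcripts, chiefly those of Aldh1a1. Aldh1a2 differed by -0.43 ± 0.23 (adjusted p = 0.362). Aldh1a3 was at 0.68, 0.68 and 0.18 FPKM in WT and 0.62, 2.99 and 15.5 in R122C 1 to 3. R122C 1 lay inside the WT range and R122C 3 far above all others, and the difference of 1.67 ± 0.71 did not pass (adjusted p = 0.232). The members of this paragraph and Aldh4a1, Aldh6a1, Aldh2 and Aldh3a2 were named after their values were seen.

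No aldo-keto or carbonyl reductase passed limma in the main comparison (0 of 14). At an unadjusted p under 0.05, 5 were lower in R122C and 0 higher, where 4.88% and 15.3% of all tested genes were. Akr1a1, which reduces a wide range of aldehydes, had the highest mean of all 71 members, and its groups overlapped. It was at 454, 480 and 506 FPKM in WT and 525, 544 and 464 in R122C, a log2 fold change of 0.09 ± 0.19 (adjusted p = 0.857), with the opposite sign under median-of-ratios scaling and quantile normalization (-0.031 and -0.152). Cbr1, which reduces quinones and prostaglandins, was at 406, 595 and 421 FPKM in WT and 316, 284 and 193 in R122C. The groups did not overlap (log2 fold change -0.85 ± 0.26, adjusted p = 0.102), and its neighbour Cbr3 overlapped between groups (-0.68 ± 0.29, adjusted p = 0.234). Akr1b3, the aldose reductase, was at 118, 151 and 130 FPKM in WT and 92.5, 91.7 and 68.0 in R122C, without overlap (-0.66 ± 0.20, adjusted p = 0.1). Cbr1 and Akr1b3 each passed under 1 of 17 alternative settings, quantile normalization (limma adjusted p = 0.0425 and 0.0372).

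Akr1c14, a hydroxysteroid dehydrogenase, was at 100, 89.2 and 63.9 FPKM in WT and 55.6, 30.6 and 9.44 in R122C 1 to 3. The groups were apart, with a span of several fold within R122C. The log2 fold change was -1.66 ± 0.53 (adjusted p = 0.117). It passed under 2 of 17 alternative settings, without R122C 1 (0.0331) and with a replicate block (0.0393). Akr1c19 in the same cluster on chromosome 13 also had its lowest value in R122C 3, at 9.62 FPKM, against 35.9 and 39.8 in the other R122C libraries (-0.92 ± 0.51, adjusted p = 0.367). Akr1c12 and Akr1c13 lie beside them and were at 51.5 to 94 and 48.2 to 133 FPKM, with log2 fold changes of -0.21 and -0.37, neither called. Of their 50-base words, 28.6% and 24.2% occur in other transcripts, chiefly in each other's.

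Several genes of liver metabolism were highest in 1 wild-type library, WT 2. Of the 163 rows, 20 were at least 5 times higher in WT 2 than in any other library, at a level of at least 0.2 FPKM there, and 17 of these are P450s. No row met that rule in WT 1, WT 3, R122C 1 or R122C 2, and 7 did in R122C 3. Cyp2e1, the ethanol-oxidising P450 of liver, was at 0.10, 5.53 and 0.10 FPKM in the 3 WT libraries in order and 0.20, 0.55 and 0.61 in R122C. It reached the minimum mean through WT 2 alone, and its log2 fold change was -0.47 ± 0.63 (adjusted p = 0.755). Cyp2a4 was at 3.58 FPKM in WT 2 and at or under 0.01 in the other 5, and Cyp3a41a at 2.72 and at or under 0.23. Cyp2c29 and Cyp3a44 did not meet the rule, at 0.65 and 0.46 FPKM in WT 2 and 0 in WT 1 and WT 3. In R122C 1 to 3 Cyp2c29 was at 0.66, 0.35 and 0.15 FPKM and Cyp3a44 at 0.29, 0.34 and 0.12. Ces1c, a carboxylesterase of liver and blood plasma, was at 3.25 FPKM in WT 2 and at or under 0.03 elsewhere. Of the 92 rows under the minimum mean, 83 were above 0 in WT 2 and 40 to 53 in each of the other libraries.

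The 7 listed liver genes did not move as one. Alb was highest in WT 2, and Fgb, Serpina1a, Serpina1c and Ahsg were also highest there. The sum of these 5 genes was 85.7 FPKM in WT 2 and 1.33 to 8.24 in the other libraries, and Fgb was listed at 0 in WT 1, WT 3, R122C 1 and R122C 3. Apoa1 and Ttr, the remaining 2 of the list, were at 446 to 2088 and 8.35 to 135 FPKM in all libraries and not highest in WT 2, and the sum of all 7 was 458 to 2172 FPKM. When WT 2 was left out, 68 members were tested. Of these 1, Ces2a, was called lower and 0 higher, with 13 and 3 below an unadjusted p of 0.05. Over all 11465 genes tested then, 18 were called lower and 246 higher, beside 95 and 602 with all libraries. The share of all genes at the unadjusted p was taken with all libraries only, so the 13 and 3 have no background. The part of liver transcripts in the other members' WT values was not tested.

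The 7 rows high in R122C 3 alone were Aldh1a3, Cbr2, Cyp2f2, Ephx3, Cyp21a1, Cyp26b1 and Ces2f. Cbr2, a carbonyl reductase known from mouse lung, was at 1.11 to 1.48 FPKM in WT, 1.49 and 1.57 in R122C 1 and R122C 2 and 13.9 in R122C 3 (adjusted p = 0.429). Cyp2f2, a P450 of mouse airway epithelium, was at 3.95 FPKM in R122C 3 and at or under 0.43 elsewhere, and Ephx3, an epoxide hydrolase of skin, at 3.21 and at or under 0.09. In the same library Krt14 was at 63.3 FPKM, against at most 1.18 in the other 5, and Krtdap at 398 against at most 7.39. Krt13, of the same list, was not limited to R122C 3. It was at 9.17, 49.6 and 301 FPKM in R122C 1 to 3 and at 0.32 to 3.77 in WT. It rose by 4.48 ± 1.05 on the log2 scale (limma adjusted p = 0.043). In R122C 2, Krt13 made up 49.6 of the list's 53.1 FPKM. Krt14 and Krt4 lay within the WT range in R122C 1 and R122C 2. Krtdap was at 7.39 and 0.24 FPKM in these libraries, against 0 to 2.98 in WT. None of the 9 squamous genes was at 0 in WT 2 or in any R122C library, while 5 were at 0 in WT 1 and 3 in WT 3. The part of squamous tissue in these 7 rows was not tested.

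**Figure D4:**
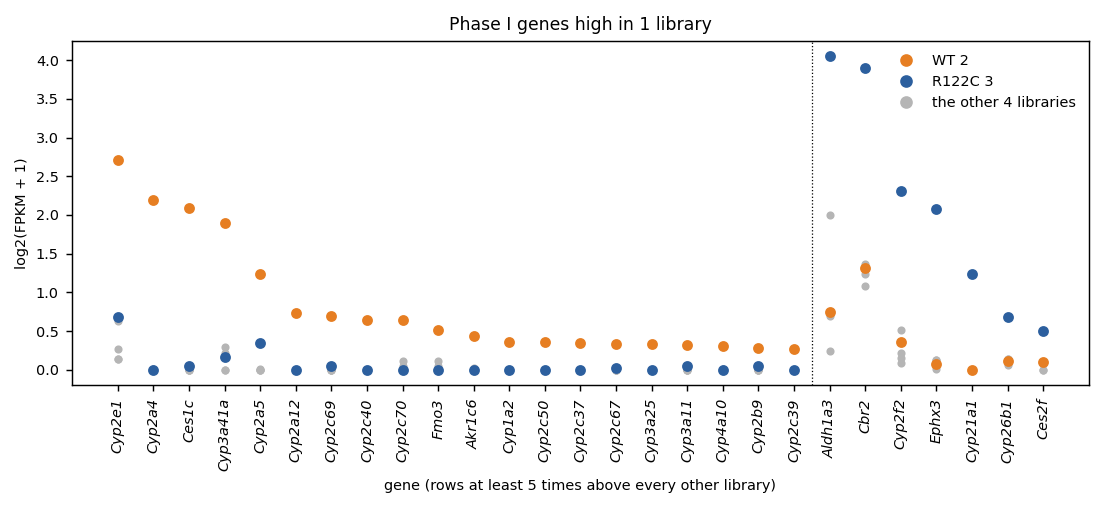
Rows of the enzyme families that were at least 5 times higher in 1 library than in every other and at least 0.2 FPKM there, 1 column per gene, with log2(FPKM + 1) on the y axis and 1 point per library. The 20 genes left of the dotted line are high in WT 2, led by Cyp2e1 at 5.53 FPKM, and the 7 on the right are high in R122C 3, led by Aldh1a3 at 15.5 FPKM.

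The minimum mean of 1 FPKM divided genes of nearly the same level. Just inside it lay Cyp2r1, Cyp1b1 and Cyp2e1, with means of 1.06, 1.13 and 1.18 FPKM, and just outside it Cyp2j9, Cyp2f2 and Ces3a, with 0.84, 0.832 and 0.832. Levels spanned a wide range: 12 members had a mean of at least 100 FPKM, 30 lay between 10 and 100, and 29 were under 10. The 5 most abundant, Akr1a1, Cbr1, Cyp2s1, Ces2c and Aldh3a1, held 45.3% of the members' summed mean FPKM. All members together made up 0.56%, 0.72% and 0.68% of all FPKM in the 3 WT libraries in order and 0.62%, 0.50% and 0.42% in R122C 1 to 3, so WT 1 lay below R122C 1.

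Genes that serve or control these enzymes are given as counts per list. Beside these counts, 6.1% of all tested genes were called, 0.832% lower and 5.27% higher. Limma called 0 of 10 P450 electron donors and haem supply genes. The smallest p, and the only unadjusted one under 0.05, was that of Cyb5a, cytochrome b5, at 222 to 312 FPKM in WT and 125 to 199 in R122C (adjusted p = 0.165). Por, the reductase that feeds microsomal P450s, was at 55.8 to 92.4 FPKM in WT and 56.2 to 71.3 in R122C (adjusted p = 0.527). The list's median was -0.17.

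Among 13 tested xenobiotic and lipid sensing transcription factors 1 fell. Nr1i2, which encodes the pregnane X receptor, a sensor of drugs and bile acids (chromosome 16, 38248323 to 38294824, minus strand), was at 10.04, 14.97 and 12.22 FPKM in the 3 WT libraries in order. In R122C 1, R122C 2 and R122C 3 it was at 5.60, 3.35 and 4.53 FPKM, below every WT value. The log2 fold change was -1.29 ± 0.23 (adjusted p = 0.0149), and it did not pass without WT 2 (0.0839), WT 3 (0.0556) or R122C 2 (0.0678). Ahr, the aryl hydrocarbon receptor, was at 3.70 to 4.84 FPKM in WT and 2.25 to 4.14 in R122C (adjusted p = 0.497). Nfe2l2, encoding NRF2, was at 174 to 218 and 138 to 185 FPKM (adjusted p = 0.465). Nr1i3, encoding CAR, did not exceed 0.13 FPKM in any mouse.

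Of 5 tested targets of the aryl hydrocarbon receptor outside the enzyme families, 2 fell and 1 rose. Nqo1, a quinone reductase that NRF2 also controls (chromosome 8, 107388225 to 107403206, minus strand), was at 413, 716 and 419 FPKM in WT and 163, 77.5 and 98.7 in R122C. R122C values lay well under all WT values, with a log2 fold change of -2.20 ± 0.33 (adjusted p = 0.00672), and Nqo1 passed whichever single library was left out, in 6 of 6 fits. Ugt1a6a, a glucuronosyltransferase whose transcript shares exons with the other Ugt1a genes, fell by 1.18 ± 0.27 on the log2 scale (adjusted p = 0.0404), and passed only when R122C 1 was the library left out, with adjusted p of 0.0558 to 0.158 in the other fits. Lpcat2, a lysophospholipid acyltransferase, was at 6.21 to 7.76 FPKM in WT and 11.9 to 14.95 in R122C and rose by 0.87 ± 0.18 (adjusted p = 0.0296). It still passed when WT 1 or R122C 3 was left out, and had an adjusted p of 0.055 to 0.133 when any other library was. Tiparp, a further target of the receptor, was at 4.55 to 5.19 FPKM in WT and 6.25 to 7.14 in R122C (adjusted p = 0.243).

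Of 12 tested retinoid handling genes 1 fell. Retsat, retinol saturase, was at 75.0, 87.7 and 90.1 FPKM in WT and 39.1, 25.3 and 15.2 in R122C, with no overlap. The log2 fold change was -1.72 ± 0.31 (adjusted p = 0.015), and it did not pass without WT 2 (0.0736), WT 3 (0.0509) or R122C 2 (0.0567). Rdh10, which makes retinaldehyde from retinol, was at 9.55 to 11.3 FPKM in WT and 12.4, 21.3 and 31.4 in R122C (0.90 ± 0.30, adjusted p = 0.134), and was named after its values were seen.

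**Figure D5:**
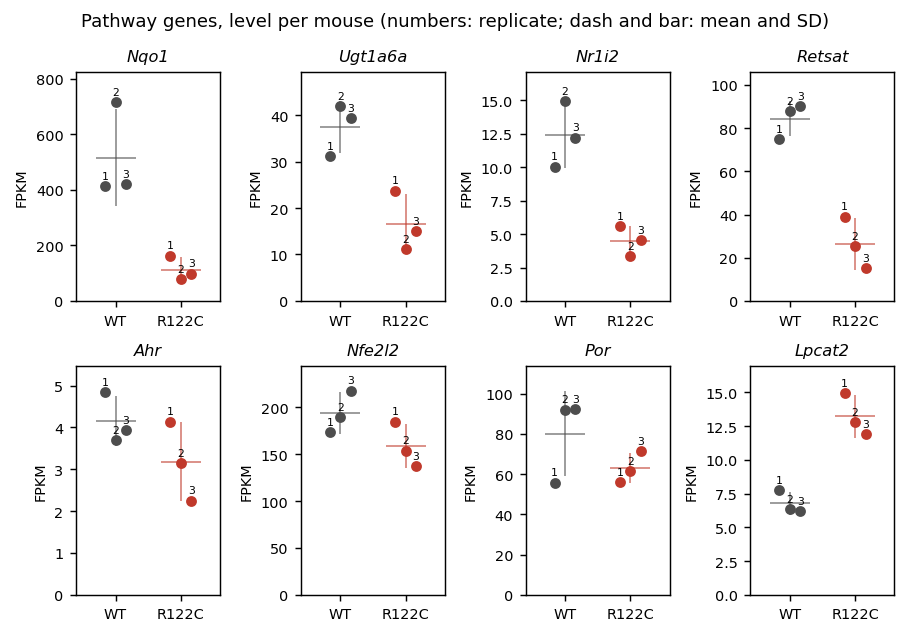
FPKM of 8 genes of the pathway lists in each mouse (points, numbered by replicate), with group mean (dash) and SD (bar). Nqo1, Ugt1a6a, Nr1i2 and Retsat lie lower and Lpcat2 higher in R122C without overlap and passed the limma threshold, while Ahr, Nfe2l2 and Por overlap between groups.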

How the data were processed

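RNA-seq of whole corpus tissue gave 1 table with 6 columns of FPKM, which the authors deposited without counts. Reads went through STAR and featureCounts on build mm10, per the submitters' processing notes. For tool versions, annotation and strand handling, nothing is given in the sources used here. FPKM follows the composition of the whole library, so a few very abundant genes can shift all others.

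The deposited FPKM were used unscaled. Rows whose 6-library mean reached 1 FPKM (11422 of 18708) were tested on log2(FPKM + 1) with limma 3.58.1 in R 4.3.3, with a trended empirical Bayes variance, no covariate, a two-sided test and Benjamini-Hochberg adjustment over all tested rows (threshold 0.05), 3 against 3 mice. With FPKM only, no counting interval was given. In simulated data the same test recovered 34%, 94%, 98% and 100% of 50 genes changed by 1, 2, 3 and 4 on the log2 scale. The changed genes had a mean log2(FPKM + 1) above 2, and the noise was independent between libraries. Recovery at lower levels, or with shifts of a whole library, was not simulated. Gene positions and shared 50-base words came from GENCODE M21, which matched 70 of the 71 members by name, and promoter windows from RefSeq (GRCm38.p6). Figures were drawn with matplotlib 3.10.9.

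Members were named when called, when highest or of smallest p in their family, among the 5 most abundant, not overlapping with an absolute log2 fold change of at least 1, or nearest to the minimum mean. Genes named outside this rule were chosen after their values were seen, and the members and lists were chosen with earlier results of these data known. Alternatives were other pseudocounts, filters, scalings and variance settings, a replicate block, and leaving out libraries.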

Additional observations from a re-analysis of the deposited data

How the results depend on the processing

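Counts of called members depended on the setting, and the cause was not tested. Higher and lower calls were 2 and 4 in the main comparison (602 and 95 over all tested genes). With no filter on low values they were 1 and 0 (427 and 66), with 22 lower at an unadjusted limma p under 0.05. They were 1 and 8 with median-of-ratios scaling (417 and 193) and 1 and 11 with quantile normalization (405 and 248). With all family rows and no minimum mean, 1 was higher and 1, Cyp4a32, lower. Leaving out 1 library gave 0 to 2 higher and 0 to 9 lower. The 0 lower came without R122C 2 (16 at an unadjusted limma p under 0.05), 1 without WT 2 or WT 3, and 9 without R122C 1. In the same order of fits the lower calls over all tested genes were 14, 18, 35 and 195. For the 22 and the 16 at an unadjusted p, no share of all tested genes was taken. The 0 higher came without WT 2, WT 3 or R122C 2, and 1 without WT 1 or R122C 3. In that order the higher calls over all tested genes were 246, 330, 298, 445 and 581. Without WT 2 and R122C 3 together, a setting chosen after seeing the data, 0 were higher and 1, Ces2a, lower (393 and 45 over all tested genes). Over all tested genes 697 were called, 449 with a mean of at least 5 FPKM, 1335 after rescaling to a common total, 264 to 761 leaving out 1 library (264 without WT 2, 365 without WT 3, 312 without R122C 2) and 438 without WT 2 and R122C 3. Same-numbered mice did not all deviate together (correlations 0.467, 0.0174 and 0.365). Whether the numbers mark pairs or batches cannot be told from these values. With a replicate block 1378 genes were called, 1119 higher and 259 lower, and 9 members were lower. Aldh3a1 (limma adjusted p = 0.059) and Ugt1a6a (0.056) no longer passed with that block. Of the log2 fold changes of 24 named genes under 17 alternatives, 324 kept direction and side of the threshold, 56 no longer passed, 11 newly passed and 6 changed sign, none of them past the threshold in either setting. These 6 were Akr1a1 (0.09; -0.031 with median-of-ratios scaling, -0.15 with quantile normalization), Cyp2r1 (0.17; -0.064 with quantile normalization) and Cyp1b1 (-0.10; 0.017 after rescaling to a common total, 0.0060 without WT 3 and 0.097 without R122C 1, in a range of -0.295 to 0.097 leaving out 1 library). The 56 losses could arise only in genes called in the main comparison. Of the called members, Ephx4 lost its call under 10 of the 17 alternatives and Aldh3a1 and Ephx1 under 6 each. Fmo5 lost it under 5, Aldh18a1 under 4 and Ces2a under 2. Depth could not be set for WT 1 and R122C 1, and 3 mice per group limit the precision.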
